A study of Mus musculus with 14 samples.

Results

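Macrophages, monocytes and granulocytes are the myeloid cells of the immune system, and 39 mouse genes that mark or run them were followed in exome data from p53null mammary tumours. The genes were taken from a list of symbols chosen with earlier results of these data known, and read in the protein-coding transcripts of each table. They make up 39 of the 21312 protein-coding genes with a variant listed in any of the 12 tumours. What was counted is variants in DNA, so the values say which of these genes carried sequence differences from the reference genome. They measure neither how many macrophages a tumour held nor how strongly a gene was expressed, and marker levels could not be used to check the tissue.

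Myeloid cells form under a small set of transcription factors and depend on colony-stimulating factors, chemokines carry monocytes into tissue, and there they sense microbes, take up debris and dead cells, and make oxidants and cytokines. In mammary tumours macrophages are often abundant and are known to take part in matrix remodelling and inflammation. A sequence change found in the DNA of a whole tumour may lie in tumour cells, in host cells or in the germ line, and these cannot be told apart in counts per gene.

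All 12 tumours grew from p53null Balb/c mammary fragments and were taken when they measured up to 2 cm across. They fall into 4 groups of 3. Stiff-gel tumours (A7, A8 and A9) grew in cleared fat pads of wild-type females beside a collagen 1 and basement membrane gel whose collagen had been crosslinked with 500 mM L-ribose, and soft-gel tumours (A1, A2 and A3) beside the same gel without L-ribose. The gel recipients were 3 to 4 weeks old, and the fragments of the gel experiment came from 8- to 10-week-old donors. No such ages were at hand for the host experiment. KO tumours (B4, B5 and B6) grew in LysM-Cre hosts lacking Gpx4, which encodes a peroxidase that removes lipid peroxides, and WT tumours (B1, B2 and B3) grew in LysM-Cre hosts with intact Gpx4. LysM-Cre is driven from the Lyz2 locus and is active in the host's macrophages, monocytes and neutrophils, so the Gpx4 deletion lies in host cells and not in the implanted fragment. The labels do not name the strain of the LysM-Cre hosts. The question behind the design is whether tension in the tissue, and oxidised lipids linked to macrophages, go with damage to DNA.

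Each tumour carried 8317 to 16544 protein-altering variants over all genes. Stiff tumour A9 and KO tumour B5 stand apart, with the fewest coding variants of their experiment and with 19.9 and 23.1 frameshifts per 100 missense variants, against 27.7 to 30.8 in the other 10 tumours. Gpx4 had 0 coding variants in all 12 tumours and Trp53 had protein-altering variants in A2, B4 and B1 alone, with 1, 1 and 2. A deletion of whole exons is not listed in such counts, so they do not check the labels. Nothing in the labels says that tumours of a group came from separate donors, so a p-value speaks only of the spread seen among these samples.

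A variant is called protein-altering here when its predicted impact is HIGH (frameshift, stop gained, splice donor or acceptor) or MODERATE (missense, in-frame insertion or deletion). At least 1 such variant was present in 23 of the 39 myeloid genes (59.0%), beside 11835 of all 21312 genes (55.5%). The other 16 genes had 0 in all 12 tumours: Spi1, Irf8, Csf3r, Ccl2, Ccr2, Cd14, Fcgr1, Apoe, Axl, Lyz1, Lyz2, Elane, Cybb, Ncf1, Nos2 and Tnf. Only Cebpa and Mertk had one in every tumour (5.13% of the list, against 7.47% of all genes), 7 genes had one in 6 to 11 tumours (17.9%, against 8.21%), 8 in 2 to 5 tumours and 6 in a single tumour. The map of counts by gene and tumour shows the 23 genes.

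**Figure D1:**
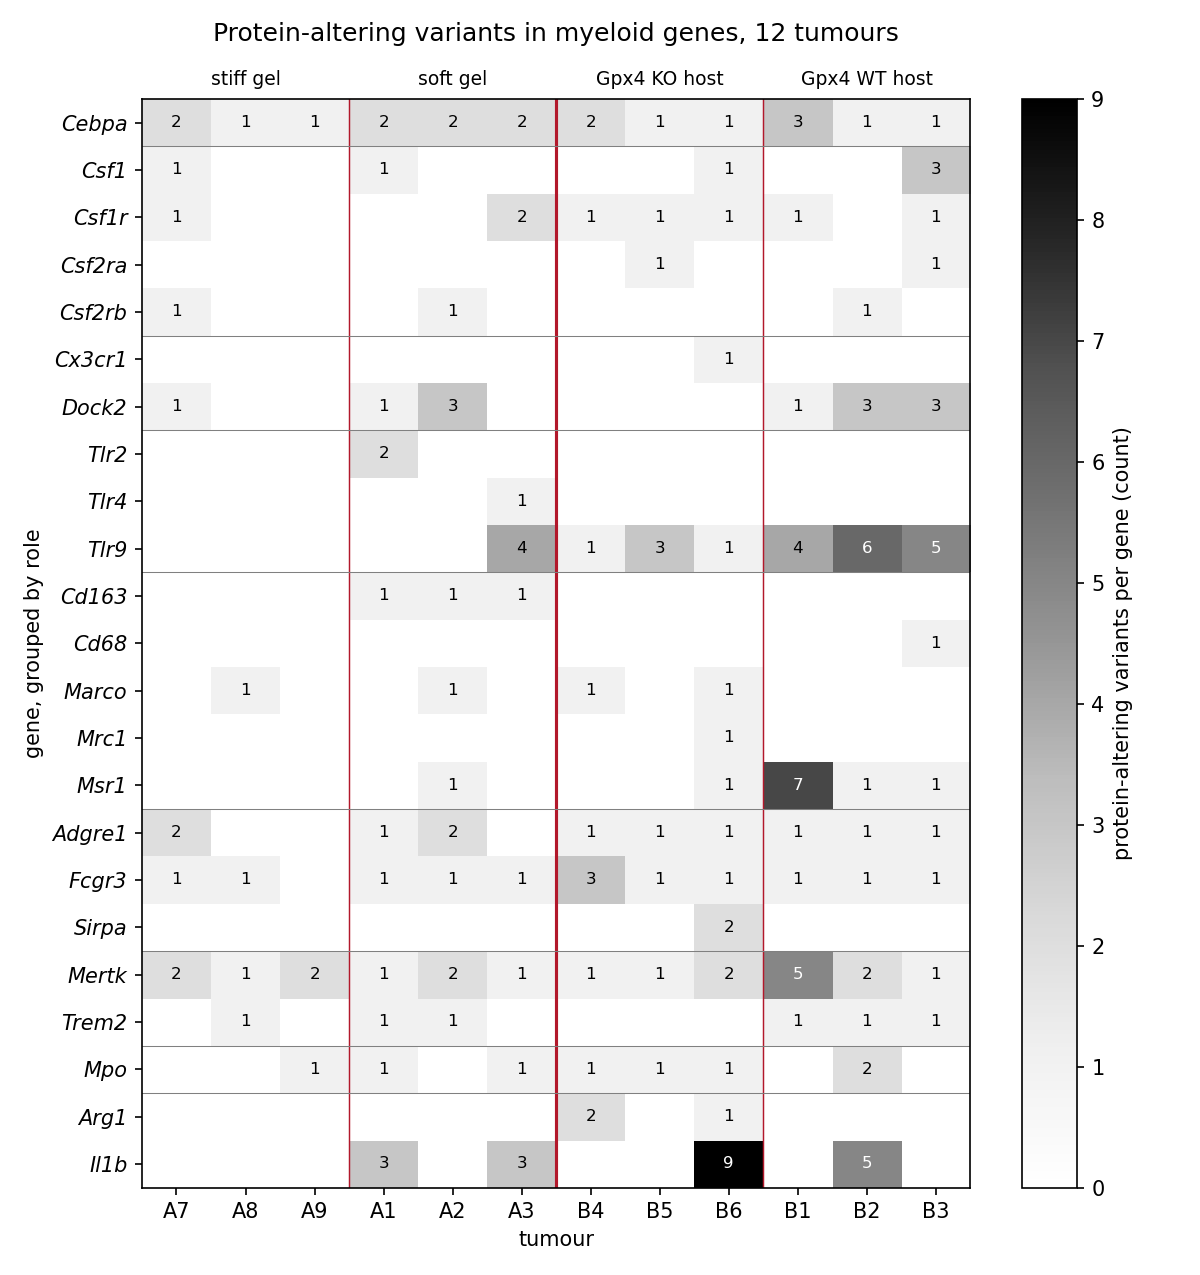
Protein-altering variants per gene (number and grey level) in each of the 12 tumours (columns, by group) for the 23 myeloid genes with at least 1, in rows grouped by role. Cebpa and Mertk are filled across all 12 columns, Cd163 is filled in the 3 soft tumours, and Il1b in KO tumour B6 holds the highest count, 9.

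Among the lineage transcription factors, Spi1 (PU.1, the master regulator of myeloid fate) and Irf8 (needed for monocytes and dendritic cells) had no protein-altering variant. Cebpa (ENSMUSG00000034957), which encodes C/EBPα and drives granulocyte and monocyte progenitors, had 2, 1 and 1 in stiff tumours A7, A8 and A9, against 2 in each of the soft tumours A1, A2 and A3. It had 2, 1 and 1 in KO tumours B4, B5 and B6, against 3, 1 and 1 in WT tumours B1, B2 and B3. Counts of 1 or 2 were thus spread over all groups, with 3 in 1 WT tumour. None of the Cebpa effects was a missense change: 13 were frameshifts, found in 11 of the 12 tumours (A9 had none), and 6 were in-frame deletions, found in A7, A9, A1, A2, B4 and B1. A synonymous variant was present in 11 of 12 tumours. The tables hold no positions, so it is unknown whether tumours with equal counts share the same variant.

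The colony-stimulating factor system carries the survival signals of the lineage, and its altered members held missense changes alone. Csf1r (ENSMUSG00000024621), the receptor of CSF1 that keeps macrophages alive, had 1, 0 and 0 in stiff tumours, against 0, 0 and 2 in soft tumours. In the host experiment it had 1 in each KO tumour, against 1, 0 and 1 in WT tumours. Csf1r thus carried a protein-altering variant in 5 of 6 host tumours and 2 of 6 gel tumours. The ligand gene Csf1 (ENSMUSG00000014599) had 1, 0 and 0 in stiff tumours, against 1, 0 and 0 in soft tumours, and 0, 0 and 1 in KO tumours, against 0, 0 and 3 in WT tumours, where B3 was highest. Csf2rb (ENSMUSG00000071713), the shared signalling chain of the GM-CSF, IL-3 and IL-5 receptors, had 1 in each of A7, A2 and B2. It lies beside the similar gene Csf2rb2, and how short reads were divided between them is not known. Csf2ra, the GM-CSF-binding chain, had 1 in B5 and 1 in B3, and Csf3r, the G-CSF receptor of neutrophils, had 0 throughout.

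In the chemokine and migration group, Ccl2 and its receptor Ccr2, the axis that recruits inflammatory monocytes, had no protein-altering variant, and Cx3cr1, the fractalkine receptor, had 1 in KO tumour B6. Dock2 (ENSMUSG00000020143), which activates the GTPase Rac in moving leukocytes, had 0 in all KO tumours, against 1, 3 and 3 in WT tumours. This split depends on the transcript rule: the mean was 2.33 lower in KO with the highest count over the gene's transcripts, and the difference was 0 with the median over them, as it was between stiff and soft tumours. The same gene had 1, 0 and 0 in stiff tumours, against 1, 3 and 0 in soft tumours, which overlap. The Dock2 effects in WT tumours were 5 missense changes and 2 frameshifts, those in soft tumours were 4 missense changes, and the 1 in stiff tumour A7 was a splice acceptor change. Synonymous Dock2 variants numbered 1 in each KO tumour, against 3, 2 and 2 in WT tumours, while every tumour had at least 1. With splice region changes included (LOW impact), Dock2 and Mertk were the 2 of 17 myeloid genes with LOW variants in host tumours whose KO values lay wholly below WT values, as did 2.2% of all such genes.

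Of the microbial sensors, Cd14 (the co-receptor for bacterial lipopolysaccharide) had no protein-altering variant, Tlr2 (lipoprotein sensor) had 2 in soft tumour A1, and Tlr4 (lipopolysaccharide receptor) had 1 in soft tumour A3. Tlr9 (ENSMUSG00000045322), the endosomal receptor for unmethylated CpG DNA, had more than any other member, 24 in total. It had 0 in all stiff tumours, against 0, 0 and 4 in soft tumours, so a single gel tumour carried all of that experiment's Tlr9 variants. Host tumours had them throughout, with 1, 3 and 1 in KO tumours, against 4, 6 and 5 in WT tumours. Every WT value lay above every KO value. The effects comprised 15 missense changes, 8 frameshifts, 1 stop gained and 1 in-frame insertion, the last both counted in B6, where the gene had 1 variant, since a variant can carry more than 1 effect. Synonymous Tlr9 variants numbered 1, 1 and 3 in KO tumours, against 2, 4 and 5 in WT tumours, which overlap. In gel tumours they numbered 0, 0 and 1 in stiff tumours, against 1, 0 and 5 in soft tumours, so A9 and A1 had a silent variant without a protein-altering one.

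The scavenger and uptake receptors bind modified lipoproteins, haemoglobin complexes and particles. Cd163 (ENSMUSG00000008845), the haptoglobin-haemoglobin receptor of tissue macrophages, had 0 in all stiff tumours, against 1 in each soft tumour, and 0 in all 6 host tumours. The change differed in kind between the soft tumours: missense in A1, stop gained in A2 and frameshift in A3. Msr1 (ENSMUSG00000025044), scavenger receptor A, had 0 in all stiff tumours, against 0, 1 and 0 in soft tumours, and 0, 0 and 1 in KO tumours, against 7, 1 and 1 in WT tumours. B1 held most of these, with 4 missense changes, 2 stops gained and 1 frameshift, and the single KO variant, in B6, was a stop gained. Marco (ENSMUSG00000026390), a related collagenous receptor, had 0, 1 and 0 in stiff tumours, against 0, 1 and 0 in soft tumours, and 1, 0 and 1 in KO tumours, against 0 in all WT tumours. Both Marco variants of KO tumours were splice donor changes, while those of gel tumours were missense. Mrc1, the mannose receptor CD206, had 1 in-frame deletion in B6, and Cd68, a lysosomal glycoprotein used as a macrophage stain, had 1 frameshift in B3.

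Among surface markers and Fc receptors, Fcgr3 (ENSMUSG00000059498), an activating IgG receptor, had 1, 1 and 0 in stiff tumours, against 1 in each soft tumour. It had 3, 1 and 1 in KO tumours, against 1 in each WT tumour. A single missense change was counted in 11 of 12 tumours, all but A9, and B4 added a frameshift, a splice acceptor change and an in-frame deletion. Fcgr3 lies next to Fcgr4 in the gene table, its family members are alike in sequence, and counts in this cluster are uncertain with short reads. Adgre1 (ENSMUSG00000004730), the gene of the F4/80 antigen that marks mouse macrophages, had 2, 0 and 0 in stiff tumours, against 1, 2 and 0 in soft tumours, and exactly 1 missense change in each of the 6 host tumours. Sirpa, the receptor for the CD47 "do not eat" signal, had 2 missense changes in B6, and Fcgr1, the high-affinity IgG receptor, had 0.

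Among the sensors of lipid and dead cells, Trem2 (ENSMUSG00000023992), a lipid-binding receptor of macrophages and microglia, had frameshifts and no other protein-altering change. It had 0, 1 and 0 in stiff tumours, against 1, 1 and 0 in soft tumours, and 0 in all KO tumours, against 1 in each WT tumour. The host groups therefore split completely for Trem2, while stiff and soft overlapped. Mertk (ENSMUSG00000014361), the tyrosine kinase by which macrophages engulf dying cells, had 2, 1 and 2 in stiff tumours, against 1, 2 and 1 in soft tumours, and 1, 1 and 2 in KO tumours, against 5, 2 and 1 in WT tumours. One of these was a splice donor change in every one of the 12 tumours. No other protein-altering effect of the 39 genes was counted in all 12. B1 had 3 missense changes and a frameshift besides. Synonymous Mertk variants numbered 0 in each KO tumour, against 2, 2 and 1 in WT tumours, and 0 in all gel tumours. Of all genes with LOW variants in host tumours, 2.2% had KO values wholly below WT values. Apoe, the lipid carrier made by foamy macrophages, and Axl, the sister kinase of Mertk, had 0 protein-altering variants.

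The granule and oxidant enzymes were the quietest group, with 1 of 6 genes altered. Mpo (ENSMUSG00000009350), the myeloperoxidase of neutrophil granules that makes hypochlorous acid, had 0, 0 and 1 in stiff tumours, against 1, 0 and 1 in soft tumours, and 1 in each KO tumour, against 0, 2 and 0 in WT tumours. All 8 changes were missense and the groups overlapped. Lyz1 and Lyz2 (the lysozymes), Elane (neutrophil elastase), and Cybb and Ncf1 (subunits of the NADPH oxidase that makes superoxide) had 0. Lyz1 and Lyz2 are neighbouring near-copies, and their counts are uncertain for that reason. The Cre inserted at Lyz2 in the hosts is not seen by counts of this kind.

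In the last group, Nos2 (inducible nitric oxide synthase) and Tnf (tumour necrosis factor) had 0 protein-altering variants. Arg1 (ENSMUSG00000019987), the arginase that uses the same substrate as Nos2, had 2, 0 and 1 in KO tumours, against 0 in all WT tumours, and 0 in all gel tumours. Il1b (ENSMUSG00000027398), which encodes the inflammatory cytokine IL-1β, had 0 in all stiff tumours, against 3, 0 and 3 in soft tumours. It had 0, 0 and 9 in KO tumours, against 0, 5 and 0 in WT tumours. Il1b was thus either at 0 or at 3 and more in any tumour, with all of the 20 variants in A1, A3, B6 and B2. The effects were 18 missense changes and, in B6, 2 frameshifts.

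By kind of effect, the 184 protein-altering effects of the 39 genes comprised 62.5% missense, 20.7% frameshift, 8.70% splice donor or acceptor, 5.43% in-frame and 2.72% stop gained. Over all genes the shares were 67.6%, 19.1%, 3.80%, 4.44% and 4.58% of 140861 effects. The splice share of the list rests on Mertk, whose 12 splice donor changes were most of its 16. Synonymous changes numbered 91.3 per 100 missense changes in the list and 78.1 over all genes. These shares are descriptions over tumours that may share variants, and no test was made.

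**Figure D2:**
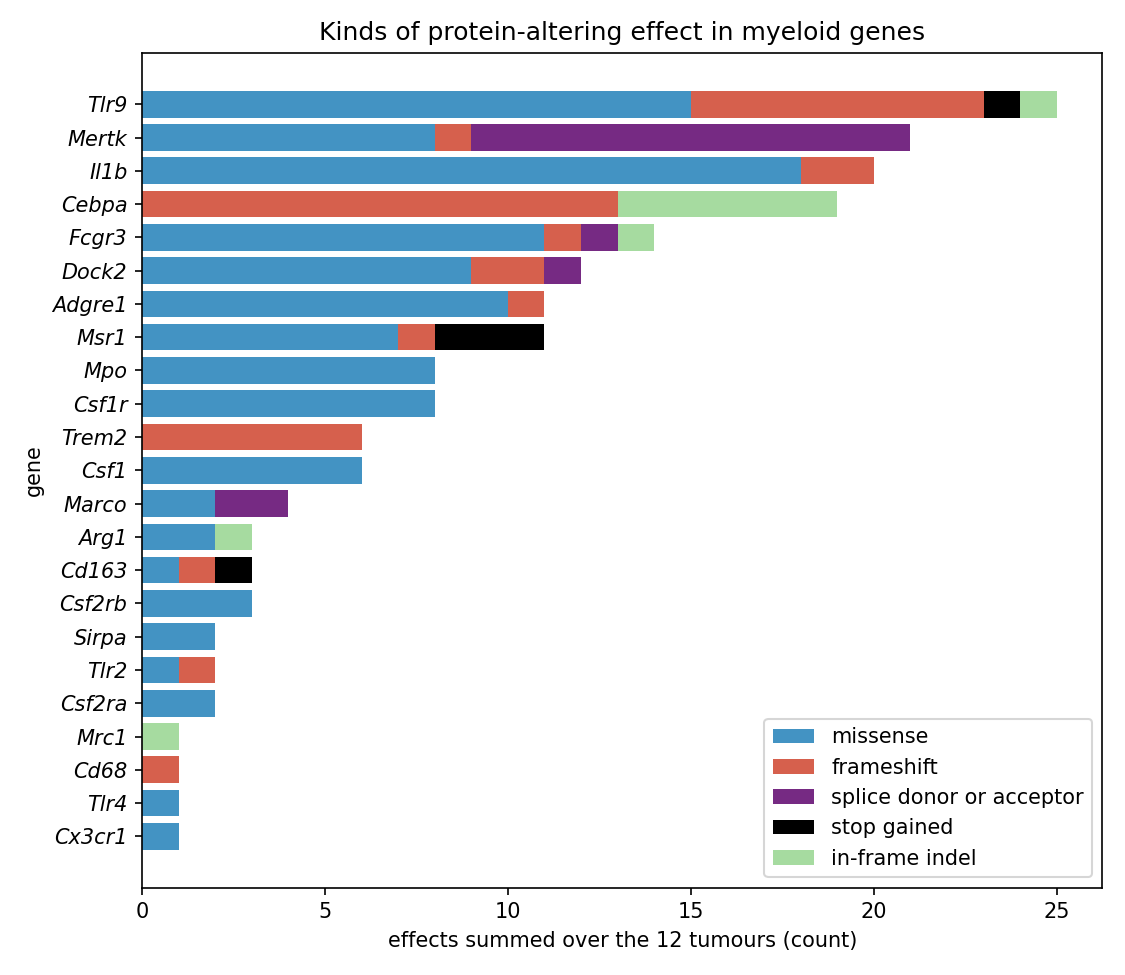
Protein-altering effects summed over the 12 tumours (horizontal axis, count) for the 23 myeloid genes, split by kind (colour). Tlr9 and Il1b are mostly missense, Cebpa has frameshifts and in-frame deletions only, Trem2 frameshifts only, and 12 of the Mertk effects are splice donor changes.

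Summed over the 39 genes, stiff tumours had 11, 5 and 4 protein-altering variants (A7, A8 and A9), against 15, 15 and 16 in soft tumours (A1, A2 and A3). Every stiff value lay below every soft value. The mean was 6.67 ± 3.79 in stiff and 15.3 ± 0.577 in soft tumours (SD, n = 3 each), a difference of -8.67. Per 10000 protein-altering variants of the same tumour, the list held 10.7, 5.13 and 4.44 in stiff tumours, against 15.1, 12.9 and 15.0 in soft tumours, still without overlap. The number of genes hit was 8, 5 and 3 in stiff tumours, against 11, 10 and 9 in soft tumours. A9, the library with the lowest frameshift share, had the lowest sum, and the difference without it was -7.33. Because the list was put together with results of these tumours known, no p-value is given for the sum.

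Most members that differed behind this sum had lower means in stiff tumours, with small counts in each. They come from the same tumours as the sum and from a list chosen with results known. Their shared direction is therefore no separate evidence. Between stiff and soft tumours the mean was lower in stiff for 13 myeloid genes, higher for 1 (Mertk) and equal for 25, with a median difference of 0. Over all 21312 genes it was lower for 4262, higher for 3396 and equal for 13654, also with a median of 0, so that 92.9% of the differing myeloid genes and 55.7% of all differing genes were lower in stiff tumours. Il1b (6 variants fewer in total), Tlr9 (4 fewer), Cd163 and Dock2 (3 fewer each) made up most of the gap in the sum. Leaving out 1 tumour at a time gave 11 to 15 genes lower and 2 to 4 higher when a gel tumour was left out, the lowest lead being without A9, at 11 lower and 4 higher. The mean of Csf1r became 0.333 higher in stiff tumours without A3, and that of Adgre1 0.167 higher without A2. The Tlr9 difference was 0 without A3.

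**Figure D3:**
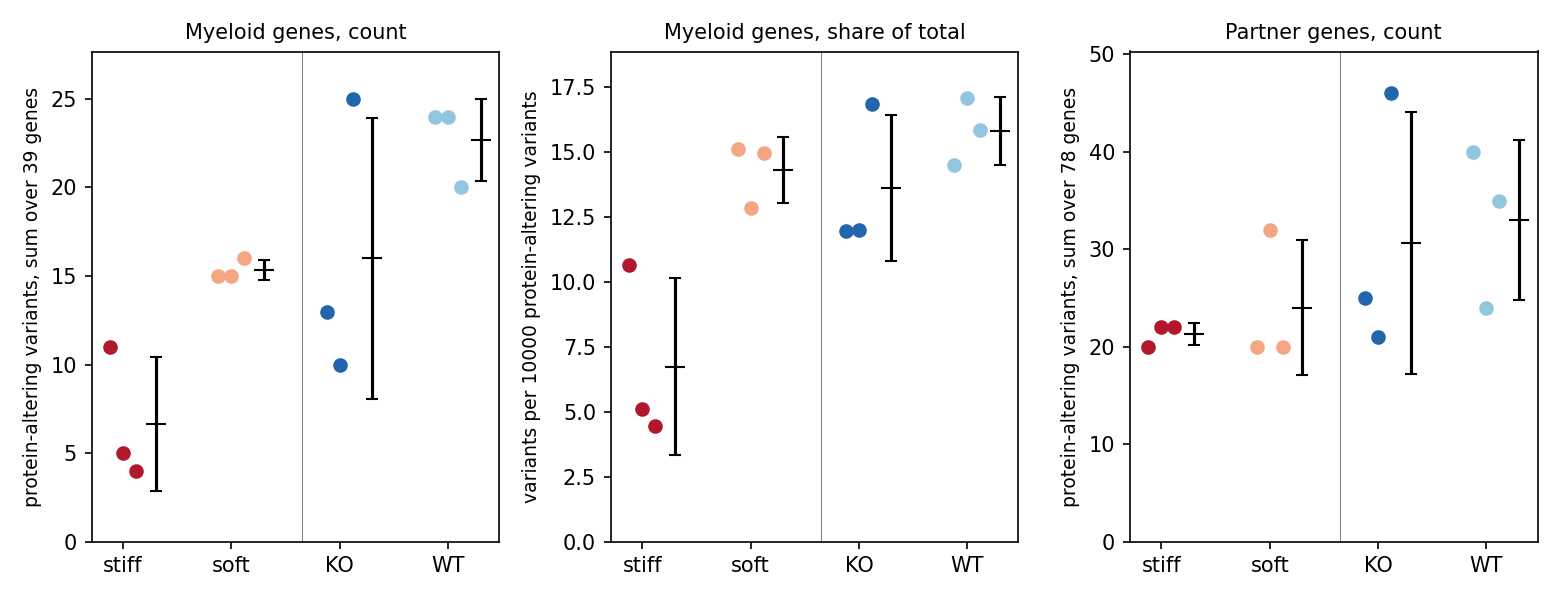
Protein-altering variants per tumour (points, by group) summed over the 39 myeloid genes, the same per 10000 protein-altering variants of the tumour, and summed over 78 partner genes of the same pathways. Bars are mean and SD of 3 tumours. Stiff values of the myeloid list (4 to 11) lie below soft values (15 and 16), KO values span 10 to 25 and reach above WT values (20 to 24), and for the partner genes stiff and soft values overlap.

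For single genes, stiff and soft tumours were compared with edgeR's quasi-likelihood test on all genes with a summed count of at least 3. No gene was called among 4312 tested (0% at an adjusted p under 0.05), while 106 (2.46%) had an unadjusted p under 0.05. Of the 39 myeloid genes, 11 passed the count filter and 0 were called. The smallest p belonged to Cd163, with an unadjusted p of 0.0414 and an adjusted p of 1 by edgeR. Cd163 was also the sole myeloid gene whose stiff and soft values did not overlap, 1 of the 17 with a variant in the gel tumours, when 1.3% of all genes with a variant had stiff values wholly below soft ones and 0.57% wholly above. It had a variant in 3 of 3 soft and 0 of 3 stiff tumours, a pattern found in 0.66% of all such genes. At 1 variant per tumour this complete split gave an unadjusted edgeR p of only 0.0414. A gene with such counts could therefore hardly be called after adjustment over all genes tested. Scaled to each tumour's total, Cd163 was again the one myeloid gene without overlap, while 1.25% of all genes were wholly lower and 2.82% wholly higher in stiff tumours. With any 1 gel tumour left out, Cd163 was no longer among the genes with an unadjusted edgeR p under 0.05. DESeq2 also called 0 genes, with 7 at an unadjusted p under 0.05, none of them a myeloid gene.

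In the host experiment, which sets Gpx4-deficient against Gpx4-proficient myeloid cells in the host, the sums overlapped. KO tumours had 13, 10 and 25 protein-altering variants over the 39 genes (B4, B5 and B6), against 24, 24 and 20 in WT tumours (B1, B2 and B3). The mean was 16 ± 7.94 in KO and 22.7 ± 2.31 in WT tumours (SD, n = 3 each), a difference of -6.67 that was within the spread of KO tumours. It was -1.83 with the median over transcripts and -2.84 when each tumour was scaled to its total of protein-altering variants. B6 alone set that spread: it had protein-altering variants in 15 of the 39 genes, was the one carrier for Cx3cr1, Mrc1 and Sirpa, and held 9 of its 25 variants in Il1b. Without B6 the difference was -11.2, and without B5 -3.67. Per 10000 protein-altering variants the list held 12 in B4, 12 in B5 and 16.9 in B6 among KO tumours, against 14.5, 17.1 and 15.9 in WT tumours. The mean was lower in KO for 9 genes, higher for 9 and equal for 21, with a median difference of 0, while over all genes 62.7% of those that differed were lower in KO.

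Dock2, Tlr9 and Trem2 had KO values wholly below WT values, 3 of 20 myeloid genes with a variant in host tumours, against 2.41% of all such genes. None had KO values wholly above WT values (0.416% of all). With the median over transcripts 2 of 18 genes with a variant, Tlr9 and Trem2, were wholly lower in KO, against 2.44% of all such genes. Scaled to each tumour's total the wholly lower genes were Dock2, Msr1 and Trem2, and Tlr9 overlapped, while over all genes 2.22% were wholly lower and 2.15% wholly higher. Dock2 and Trem2 had a variant in 3 of 3 WT and 0 of 3 KO tumours, as did 1.11% of all genes with a variant. In the edgeR test of 5309 genes none was called (0%) and 199 (3.75%) had an unadjusted p under 0.05. Of the myeloid genes, 13 passed the filter and 0 were called. For Tlr9, which averaged 1.67 ± 1.15 in KO and 5.00 ± 1.00 in WT tumours (SD, n = 3 each), edgeR gave a log2 fold change of -1.52 (approximate SE 0.44), an unadjusted p of 0.0222 and an adjusted p of 1. Dock2 had an unadjusted edgeR p of 0.0207 and Trem2 one of 0.0414, each with an adjusted p of 1. A fold is not given for these 2, since all KO tumours were at 0. With the median over transcripts Tlr9 and Trem2 again had an unadjusted edgeR p under 0.05 and Dock2 did not. When any 1 tumour was left out, Trem2 was no longer among the genes with an unadjusted edgeR p under 0.05. Without B2 or without B3 no myeloid gene was. DESeq2 called 0 genes as well, with 28 at an unadjusted p under 0.05, none of them a myeloid gene.

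For several genes the direction between KO and WT rested on 1 tumour. Il1b was 1.33 higher in KO on average, but 1.67 lower without B6. Csf1 was 0.667 lower in KO, but 0.333 higher without B3, and Cebpa was 0.333 lower in KO, but 0.333 higher without B1. Cebpa was also 0.171 higher in KO with all host tumours kept and counts scaled to the mean protein-altering total. Msr1 was 2.67 lower in KO, and 0.667 lower without B1, which held 7 of the 9 WT variants. With the median over transcripts it was also 0.667 lower. Arg1 and Marco had variants in 2 of 3 KO tumours and 0 of 3 WT tumours.

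The 6 gel and 6 host tumours can also be set side by side, though the gel, the recipient mice and any difference in sequencing run move together here, so their parts cannot be told apart. Over the 39 genes, gel tumours had 4 to 16 protein-altering variants with a median of 13, and host tumours 10 to 25 with a median of 22. The mean was 11 ± 5.33 in gel and 19.3 ± 6.38 in host tumours (SD, n = 6 each), a difference of -8.33. On average host tumours also carried more variants over all genes, though KO tumour B5 had 8317 protein-altering variants, the fewest of any tumour. With each tumour's count scaled to the mean protein-altering total, the difference was -4.83. Per 10000 protein-altering variants it was -4.19, with 10.5 ± 4.75 in gel and 14.7 ± 2.30 in host tumours. Unscaled, stiff minus KO alone gave -9.33, and soft minus WT gave -7.33. The mean was lower in gel tumours for 16 genes, higher for 5 (Cebpa, Csf2rb, Tlr2, Tlr4 and Cd163) and equal for 18. Of the genes that differed, 76.2% were lower in gel tumours in the list and 60.3% over all genes.

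Tlr9 was the member that separated the experiments most by count of tumours, with a variant in 1 of 6 gel and 6 of 6 host tumours. Its mean was 0.667 ± 1.63 in gel and 3.33 ± 2.07 in host tumours (SD, n = 6 each), and edgeR gave a log2 fold change of -2.13 (approximate SE 0.88), an unadjusted p of 0.0336 and an adjusted p of 0.438. Msr1 had 1 variant in gel and 10 in host tumours (unadjusted edgeR p 0.0424, adjusted p 0.438), a difference in means of -1.5 that was -0.433 without B1 and -0.667 with the median over transcripts. Cd163 had 3 in gel and 0 in host tumours (unadjusted edgeR p 0.0461, adjusted p 0.438). Of 6830 genes tested, 0 (0%) were called by edgeR and 740 (10.8%) had an unadjusted p under 0.05, and of the 16 myeloid genes tested 3 did. DESeq2 called 4 genes and had 134 at an unadjusted p under 0.05, none of them myeloid members in either case. No myeloid gene had gel values wholly below host values (0.118% of all genes with a variant did) or wholly above (0.0%).

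MODIFIER variants, mostly intronic, untranslated and flanking, were present in all 39 genes and far outnumbered the others. Their sum over the list was 710, 689 and 757 in stiff tumours, against 748, 828 and 799 in soft tumours, and 795, 671 and 1209 in KO tumours, against 1382, 1041 and 910 in WT tumours. The groups overlapped in both experiments. Per 10000 MODIFIER variants of the tumour the list held 17.6 to 22.6. Mertk, Fcgr3, Dock2 and Msr1 had the highest counts, each with 49 or more in every tumour, while Ccl2, Cd163, Elane, Apoe and Axl had at most 3.

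Mertk had 132, 125 and 125 MODIFIER variants in stiff tumours, against 150, 164 and 176 in soft tumours. All 3 stiff values lay below the soft ones, as they also did for Cx3cr1, with 13, 14 and 15 in stiff tumours, against 30, 31 and 19 in soft tumours, and for Tlr4, with 4, 2 and 4, against 11, 11 and 6. With Trem2 these were 4 of 39 genes, while 7.57% of all genes had stiff values wholly below soft ones. Csf3r, with 7, 5 and 7 in stiff tumours, against 3 in each soft tumour, and Tnf, with 2, 1 and 7, against 0, were wholly higher in stiff tumours, as were 1.62% of all genes. Once counts were scaled to each tumour's MODIFIER total, Cx3cr1, Tlr4 and Trem2 were wholly lower in stiff tumours and Csf3r and Tnf wholly higher, against 5.24% and 8.21% of all genes. With intron variants alone Mertk and Tlr4 were wholly lower and Csf3r wholly higher, of 33 myeloid genes with an intron variant, against 7.06% and 1.7% of all such genes.

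Between the hosts, Tlr4 had 2, 7 and 14 MODIFIER variants in KO tumours, against 25, 18 and 19 in WT tumours. Il1b had 9, 6 and 16, against 45, 21 and 18, and Fcgr3 had 128, 121 and 136, against 146, 155 and 142. In these 3 of 39 genes KO values lay wholly below WT values, against 6.3% of all genes, and in none wholly above (0.931% of all). Scaled to each tumour's MODIFIER total, Cx3cr1, Il1b and Tlr4 were wholly lower in KO and Mertk and Tnf wholly higher, against 4.32% and 5.09% of all genes. With intron variants alone Fcgr3 and Tlr4 were wholly lower, of 33 myeloid genes with an intron variant, against 5.52% of all such genes. Other genes moved with single tumours: Sirpa had 41, 30 and 87 in KO tumours, against 95, 37 and 49 in WT tumours, where B6 and B1 were the high ones. Msr1 had 73, 49 and 127 in KO tumours, against 175, 126 and 98 in WT tumours, and all 6 gel tumours had 50 to 74. Between gel and host tumours no myeloid gene was wholly lower (0.629% of all) or wholly higher (0.0986%). B1 and B6 also had the most coding variants of all tumours, 27337 and 24672, and the part of this in the single-gene values was not tested.

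**Figure D4:**
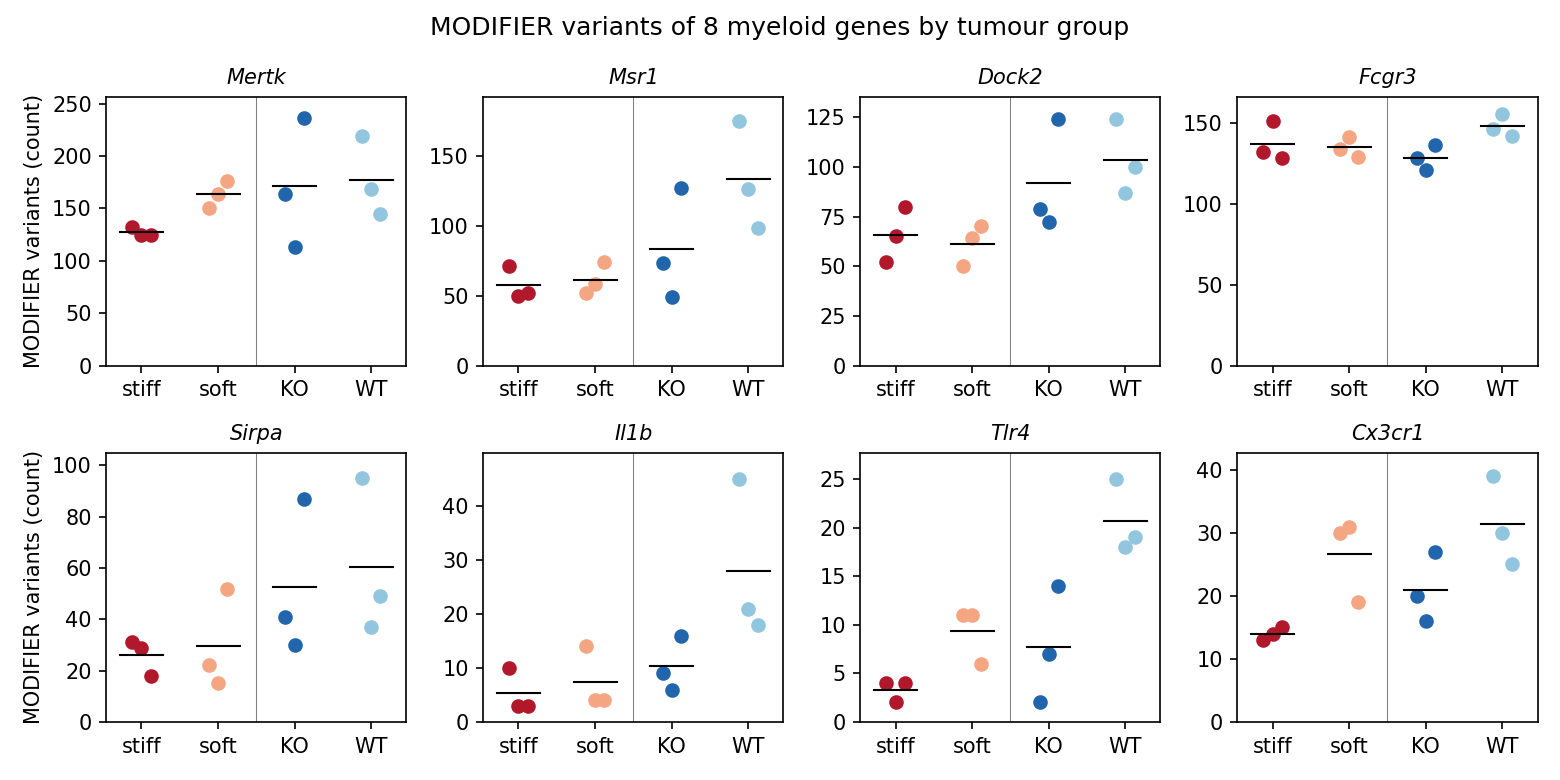
MODIFIER variants per tumour (points) by group for 8 myeloid genes, with the group mean as a line. Each panel has its own vertical axis from 0. The genes are a selection, and Csf3r and Tnf, which were wholly higher in stiff tumours, are not shown. Mertk, Tlr4 and Cx3cr1 are lower in all 3 stiff than in all 3 soft tumours (Mertk not once scaled to the MODIFIER total), Fcgr3, Il1b and Tlr4 are lower in all 3 KO than in all 3 WT tumours (Fcgr3 not once scaled), and the other genes overlap.

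The 78 partner genes, other members of the same pathways, give the surroundings of these results. Of them, 48 (61.5%) had a protein-altering variant in some tumour. Their sum was 20, 22 and 22 in stiff tumours, against 20, 32 and 20 in soft tumours, and 25, 21 and 46 in KO tumours, against 40, 24 and 35 in WT tumours, and overlapped in both experiments. Between stiff and soft tumours 17 partners were lower in stiff, 14 higher and 47 equal, 54.8% lower among those that differed. None of the partners tested by edgeR (13, 18 and 27 in the 3 comparisons) had an adjusted p under 0.05.

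By the size of the difference between stiff and soft tumours the leading partners were Cebpe, a granulocyte factor related to Cebpa, with 4 variants in A2 and 0 elsewhere in the gel experiment, Tyro3, the third kinase of the Mertk family, Casp1, the protease that matures IL-1β, Itgam, the CD11b integrin chain, and Stat5b, a transducer of GM-CSF signals. Tyro3 had 1, 1 and 0 in stiff tumours, against 2, 2 and 1 in soft tumours, and Itgam had 0, 6 and 0, against 1, 5 and 2, both overlapping. Casp1 had 0, 0 and 2 in stiff tumours, against 0 in all soft tumours, and Stat5b had 0 in all stiff tumours, against 0, 1 and 1 in soft tumours.

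Between the hosts the leading partners were Fcgr4, Klf4, Ncf4, Gfi1 and Kit. Klf4, a factor of monocyte differentiation, had 0 in all KO tumours, against 2, 1 and 1 in WT tumours. A variant in every WT and no KO tumour was found in 1.11% of all genes with a variant there. The unadjusted edgeR p of Klf4 was 0.0185, with an adjusted p of 1. It alone of the 18 partners tested had an unadjusted p under 0.05, against 3.75% of all genes tested. The other 4 leading partners overlapped between KO and WT tumours. Fcgr4, a further IgG receptor, had 2, 0 and 0 in KO tumours, against 2, 0 and 5 in WT tumours, and Ncf4, an oxidase subunit, had 3, 0 and 5, against 3, 1 and 0. Between gel and host tumours the leading partners were Kit, Fcgr4, Tyro3, Flt3 and Il1a, all lower in gel tumours on average. Kit, the stem cell factor receptor, had 1 variant in gel tumours (A2) and 0, 1 and 3 in KO and 3, 4 and 0 in WT tumours (unadjusted edgeR p 0.0184, adjusted p 0.438).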

How the data were processed

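Exome libraries of 12 tumours were analysed. The 2 tail samples were not analysed here. The labels' protocols give a SureSelectXT mouse exon capture, 150 bp read pairs, and a depth above 50x from 6 Gb per sample. Alignment and calling drew on GATK, SAMtools 1.19.2 and BWA 2.2.1 on the GRCm39 build, per the submitters' processing notes. For caller settings, filters and matched normals: not given in the sources used here. Deposited values are counts of variants per transcript by predicted impact and effect, written by snpEff per the file headers. Start and stop codon columns were deposited as the same kind of other whole number. Read depth, position and allele fraction are not listed, so depth behind a count is unknown, inherited differences cannot be told apart from somatic ones, and no interval or coordinate is given.

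A gene's count per impact class was the maximum over its protein-coding transcripts, and 0 if unlisted. Rows with a blank biotype (9.23 to 9.96% per tumour) were left out. Genes with a sum of at least 3 were tested with edgeR 4.0.16 (quasi-likelihood, equal library sizes, Benjamini-Hochberg over all genes tested, threshold 0.05, R 4.3.3), and DESeq2 1.42.0 as an alternative. The SE of a fold is approximate, the absolute log2 fold divided by the root of edgeR's F. The edgeR test was tried on simulated data, with changes set only in genes of higher mean counts than the members. That trial does not show whether changes in the members could be found. Alternatives changed the transcript rule, impact classes, scaling, tool and tumours included.

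Members and partner lists were chosen with earlier results of these data known. Values per tumour are given for members altered in at least 6 tumours, passing the filter of an edgeR test, all-or-none between groups, or with HIGH variants in 3 or more tumours, and the 5 partners with the largest difference per comparison are named. A GRCm38.p6 table gave names of neighbouring genes and matched all 117 listed symbols. Protein sequences were not used here.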

Additional observations from a re-analysis of the deposited data

Results flagged for a closer look

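Over all 39 genes, 16 counts stood far from the other 5 tumours of their experiment, by a gap to the nearest tumour over the whole range above Dixon's 95% critical value for 6 samples. Chance alone flags about 1 in 20 groups, and with counts of 0 and 1 any lone value gives a gap of 1, the whole range. Of the gel tumours, soft tumour A2 had 3 protein-altering variants in Dock2 (gap 0.667) and 1 in Msr1 (gap 1), soft tumour A1 had 2 in Tlr2 (gap 1), and soft tumour A3 had 4 in Tlr9 and 1 in Tlr4 (gap 1 each). Stiff tumour A9 was low for Fcgr3, with 0 where the other 5 had 1 (gap 1). Of the host tumours, KO tumour B4 had 3 in Fcgr3 where the others had 1 (gap 1), and KO tumour B6 had 2 in Sirpa, 1 in Cx3cr1 and 1 in Mrc1 where the others had 0 (gap 1 each). WT tumour B1 had 7 in Msr1 (gap 0.857) and 5 in Mertk (gap 0.75). WT tumour B3 had 3 in Csf1 (gap 0.667) and 1 in Cd68 (gap 1). WT tumour B2 had 1 in Csf2rb where the others had 0 and was low for Csf1r, with 0 where the others had 1 (gap 1 each).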

How the results depend on the processing

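The difference in the summed protein-altering count of the 39 genes kept its direction under every alternative run. Stiff minus soft was -8.67 as reported, -12.3 with LOW variants added and -2.67 with HIGH variants alone, and gel minus host was -8.33, -16.3 and -2.33. Omitting 1 tumour gave -10.8 to -7.33 for stiff minus soft, -11.2 to -3.67 for KO minus WT and -10.2 to -6.93 for gel minus host. The 23 altered genes became 22 with the median over transcripts and 28 with LOW variants. In the gel and host comparison DESeq2 called 4 genes where edgeR called 0, and omitting 1 tumour gave 0 to 3, with 3 without A2; the cause was not tested. Of 496 alternative values for 40 single-gene differences, 10 moved by more than the spread between replicates and 12, in 9 differences, changed sign. Among the 10 are scaled values of genes whose replicates were all alike, where any change counts as moved. Scaling took Cd163 from -1 to -0.955 for stiff minus soft. For KO minus WT it took Trem2 from -1 to -0.905 and Adgre1 from 0 to 0.295. The counts of genes without overlap and of genes lower in stiff tumours were recomputed under alternatives chosen after seeing the data. No paired analysis was possible because the labels give no replicate numbers shared between groups. Without read depth, a count of 0 may also mean that a site was not covered.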
